A study of Mus musculus with 6 samples.

Results

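Hemoglobin and erythroid genes were examined in RNA-sequencing of the cochlea of young and old C57BL/6 mice. The 8 genes were the adult α-globin genes Hba-a1 and Hba-a2, the adult β-globin genes Hbb-bs and Hbb-bt, the haem synthesis gene Alas2 and the erythroblast genes Slc4a1, Klf1 and Epb42. They were chosen by symbol, as genes that tell circulating red cells from erythroblasts of the marrow, and all 8 were found among the 25823 genes of the table. All 8 also passed the filter of the age comparison, a mean of at least 0.1 FPKM (fragments per kilobase of transcript, scaled to the sequenced fragments of the library) over the 6 samples. The tissue was cochlear basilar membrane of C57BL/6 mice, an inbred strain with early age-related hearing loss (AHL), taken at 1 month (young) or 12 months (old) of age. Tissue of 3 mice was mixed in each sample, and 3 samples per age were sequenced, so that p-values measure the spread between mixed samples. The labels name no treatment and no engineered allele in either age group. The sex of the mice and whether the vessels were rinsed of blood are not given in the sources used here.

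A red cell carries oxygen on hemoglobin, which is built from α-globin and β-globin chains with a haem group in each chain. Red cells arise in the marrow from erythroblasts, nucleated precursors in which the transcription factors GATA1 and KLF1 switch on globin, haem synthesis and membrane genes. Young red cells that enter the blood have lost the nucleus but still hold much globin mRNA, and vessels run through the cochlear lateral wall and beneath the basilar membrane, inside a capsule of bone.

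The adult globin genes come in near-identical pairs, and the sequences that separate them are shown since they set how well the members of a pair can be told apart. Hba-a1 and Hba-a2 lie on the plus strand of chromosome 11 (GRCm38), at 32283511 to 32284465 and at 32296489 to 32297298. Hbb-bs and Hbb-bt lie on the minus strand of chromosome 7, at 103826534 to 103828096 and at 103812524 to 103813996. In GENCODE M21 the coding sequences of the α-globin pair, both 426 nt without the stop codon, differed at 1 base, C381T, and those of the β-globin pair, both 441 nt, differed at 1 base, C417T. Positions are counted from 1 at the first base of the start codon, the first letter is the base of Hba-a1 or Hbb-bs, and both differences fall on the third base of a codon (codons 127 and 139). The 41 coding bases around each difference, with the differing base in capitals, are these.
Hba-a1: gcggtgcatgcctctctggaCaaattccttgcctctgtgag
Hba-a2: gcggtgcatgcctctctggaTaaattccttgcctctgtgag
Hbb-bs: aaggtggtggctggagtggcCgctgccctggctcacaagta
Hbb-bt: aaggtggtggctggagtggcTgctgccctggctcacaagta
Of all windows of 150 nt, the read length, 48.4% of those in the Hba-a1 transcript and 65.7% of those in the Hba-a2 transcript were found unchanged in the other gene. The shares were 58.7% for Hbb-bs and 50.7% for Hbb-bt. The split of reads within a pair is therefore uncertain, and the sum of each pair is given beside the values of its members.

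The promoters are shown as the control regions through which erythroblasts use these genes. RefSeq promoter sequence (GRCm38.p6) was found for 7 of the 8 genes, all except Slc4a1. In the 250 bases before the RefSeq start, both strands were searched for GATA motifs (the letters GATA after A or T and before A or G), for CACCC, the core of KLF1 motifs, and for CCAAT. In 6 of the 7 promoters a GATA motif was found, against 26.5% of 32851 promoters in the same table. CACCC was found in 6 of 7, against 52.0%, and CCAAT in 5 of 7, against 33.9%. A globin, a haem synthesis and a regulator promoter follow, each up to the base before the first annotated start, with the motifs in capitals. The Hba-a2 stretch is chr11:32296289-32296488 on the plus strand, that of Alas2 is chrX:150547175-150547374 on the plus strand, and that of Klf1 is chr8:84901732-84901927 on the plus strand.
Hba-a2: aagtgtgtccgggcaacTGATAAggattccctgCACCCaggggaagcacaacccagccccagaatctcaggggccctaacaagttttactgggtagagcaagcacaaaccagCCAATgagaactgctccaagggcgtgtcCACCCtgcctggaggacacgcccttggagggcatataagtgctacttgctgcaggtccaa
Alas2: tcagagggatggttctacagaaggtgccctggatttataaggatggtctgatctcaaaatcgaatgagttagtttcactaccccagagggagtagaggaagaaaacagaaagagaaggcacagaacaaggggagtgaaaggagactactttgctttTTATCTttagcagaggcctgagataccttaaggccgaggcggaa
Klf1: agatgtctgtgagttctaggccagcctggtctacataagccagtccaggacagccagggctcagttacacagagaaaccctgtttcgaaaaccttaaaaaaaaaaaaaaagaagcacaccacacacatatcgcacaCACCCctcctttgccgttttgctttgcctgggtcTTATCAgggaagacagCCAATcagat
In the Alas2 and Klf1 promoters the GATA motif is on the other strand and reads reversed, from TTATC on. The counts cover all 250 bases and include matches outside the stretches shown. Alas2 had 3 CACCC matches, 0 of them in its shown stretch. The Hba-a1 promoter was the same as that of Hba-a2 over 247 of 247 compared bases, and both are counted. These matches describe the letters only, and binding was not measured.

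Before the levels are compared, the young 1 sample has to be set apart. The sums of FPKM were alike in all 6 samples, from 576487 to 601724, and the steps of the lowest FPKM values put the depth at 12470000 to 15670000 fragments. Genes were counted as set apart in young 1 only where they reached a mean of 0.1 FPKM and a median above 0 over the other 5 samples, since a gene that passes the filter through young 1 alone has to be high there. Of 19067 such genes, 12.5% had their highest value in young 1, and 5.30% were more than 2-fold above the median of the other 5 samples there. This way of counting was chosen with the values known. The granulocyte precursor list was drawn up as granule genes of marrow granulocytes, but granulocytes of the marrow and of the blood were not told apart. Of its 12 genes that passed the filter over all 6 samples 9 could be counted, and all 9 were highest in young 1 and more than 2-fold above that median. The summed level of all 12 genes was 452 FPKM in young 1, with S100a8 and S100a9 at 228 and 159 FPKM. This sum was 12.1 and 29.0 FPKM in the other young samples and 15.9 to 85.3 FPKM in the old samples. The changes between the ages are therefore given with and without young 1. Genes of cochlear cells, such as Coch of the spiral ligament and limbus and Gjb2, the gap junction protein of supporting cells, were present in all 6 samples, with 5303 to 9242 FPKM and 339 to 478 FPKM. Of the 8 cochlear genes tested, 1 rose with age (Otog, limma adjusted p = 0.0326) and 2 fell, Slc26a5 (adjusted p = 0.0194) and Coch. Of all genes tested, 5.41% rose and 3.68% fell. Coch was at 8295 ± 936 FPKM in young and 5447 ± 221 FPKM in old mice (SD, n = 3, limma adjusted p = 0.0241). Without young 1 the limma adjusted p was 0.0475 for Slc26a5, and 0.0741 for Otog and 0.0559 for Coch, which no longer passed. Otog and Slc26a5 were named after their values were seen.

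Adult globin transcripts were abundant in the cochlea of both ages, and no globin gene passed the test between young and old mice, which called 5.41% of all genes as higher and 3.68% as lower with age. By mean FPKM, Hbb-bs ranked 39, Hba-a2 208, Hba-a1 212 and Hbb-bt 441 among all genes. The summed level of the 4 adult globins was 2930.4, 1427 and 2729.8 FPKM in the young samples and 1359, 1400.2 and 2244 FPKM in the old samples. The means were 2362 ± 816 FPKM (young) and 1668 ± 500 FPKM (old, SD, n = 3), which is 0.230% to 0.503% of all FPKM of a sample. Young 1, young 3 and old 3 were high, young 2, old 1 and old 2 were low, and the age groups overlapped. In bulk tissue, fewer blood cells and less globin RNA per cell cannot be told apart.

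Hba-a1 was measured at 521, 221 and 453 FPKM in young 1, 2 and 3 and at 149, 250.5 and 378 FPKM in old 1, 2 and 3. Hba-a2 was measured at 568, 251 and 495 FPKM in young 1, 2 and 3 and at 81.5, 255 and 394 FPKM in old 1, 2 and 3. For both genes young 1 was the highest and old 1 the lowest sample, and the old samples lay within or below the range of the young ones. The log2 change (old minus young, on the log2(FPKM + 0.1) scale) was -0.63 ± 0.41 (SE) for Hba-a1, with a limma adjusted p of 0.365. For Hba-a2 it was -1.04 ± 0.57, with an adjusted p of 0.284. Without old 1 the values were -0.28 and -0.38, and without young 1 they were -0.39 and -0.81.

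Hbb-bs, the major β-globin gene of this strain in these samples, was measured at 1585, 832 and 1559.8 FPKM in young 1, 2 and 3 and at 1000.2, 791 and 1306 FPKM in old 1, 2 and 3. Hbb-bt, the second β-globin gene of the cluster, was measured at 256, 123 and 222 FPKM in young 1, 2 and 3 and at 128, 104 and 166 FPKM in old 1, 2 and 3. Young 1, young 3 and old 3 were again the 3 highest samples, and old 2, not old 1, was the lowest. The log2 change was -0.33 ± 0.28 (SE) for Hbb-bs (limma adjusted p = 0.486) and -0.56 ± 0.28 for Hbb-bt (adjusted p = 0.251), and the age groups overlapped for both. Without young 1 the changes were -0.17 and -0.35.

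**Figure D1:**
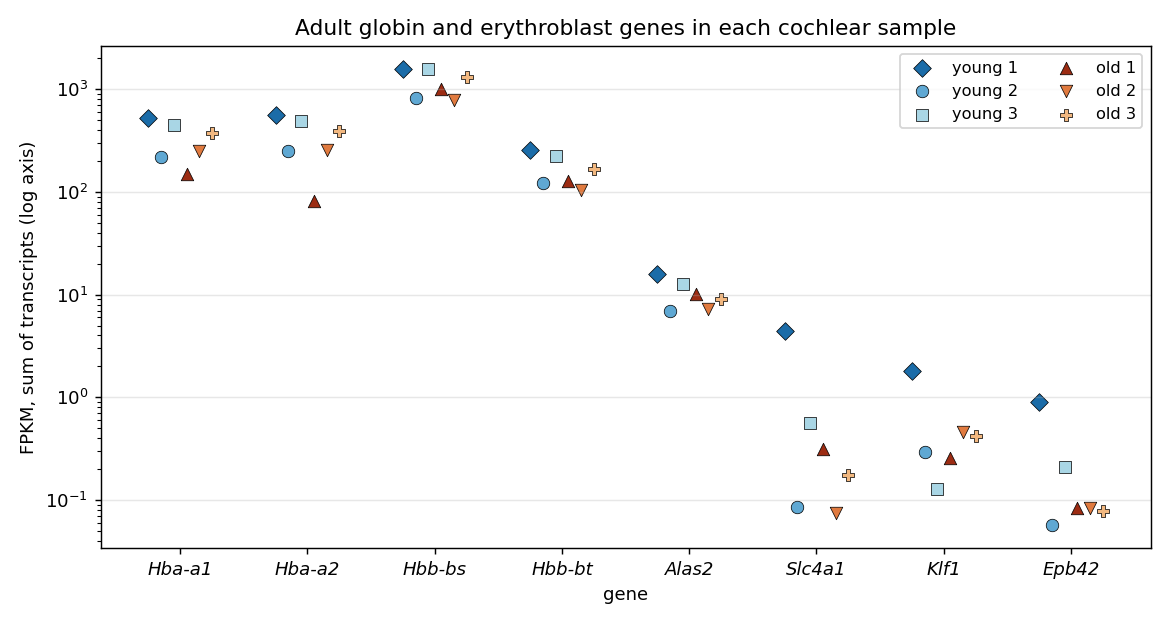
FPKM (log axis, sum of the transcripts of a gene) of the 8 genes in each of the 3 young and 3 old samples, 1 point per sample. The 4 globins and Alas2 keep the 6 samples within about an order of magnitude, whereas Slc4a1, Klf1 and Epb42 show young 1 above the other 5 samples.

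The balance between α-globin and β-globin transcripts was alike in 5 samples and different in old 1. The summed α-globin pair over the summed β-globin pair was 0.592, 0.494 and 0.532 in the young samples and 0.204, 0.564 and 0.525 in the old samples. Old 1 had 230.2 FPKM of the α-globin pair and 1128 FPKM of the β-globin pair, against 505 and 895 FPKM in old 2. Within the α-globin pair, Hba-a2 over Hba-a1 was 0.548 in old 1 and 1.02 to 1.14 in the other 5 samples. The estimated number of fragments behind Hba-a2 in old 1 was 262, against 919 to 1996 in the other samples. What set old 1 apart was not tested.

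Within the β-globin pair, Hbb-bt over Hbb-bs was 0.161, 0.148 and 0.143 in the young samples and 0.128, 0.131 and 0.127 in the old samples. All 3 old samples were below all 3 young samples. This ratio was looked at after the values were seen and is given with no test, and the genes of the pair share the reads described above.

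The other genes of the globin clusters were close to or below detection. Of the embryonic and minor globin genes, Hbb-bh1 and Hbb-bh2 were listed at 0 in all 6 samples, and Hba-x and Hbb-y, the embryonic α-like and β-like globins, were listed above 0 in old 2 alone, at 0.123 and 0.182 FPKM. Hbq1a and Hbq1b, θ-globin genes whose function is not settled, passed the filter with at most 0.513 and 0.555 FPKM in any sample, and neither passed the test.

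Alas2, the erythroid form of the enzyme that starts haem synthesis, was the next most abundant member. It lies on the plus strand of chromosome X at 150547375 to 150570638. Its level was 15.9, 6.91 and 12.7 FPKM in the young samples and 10.1, 7.22 and 9.12 FPKM in the old samples. Young 1 was the highest and young 2 the lowest sample, so that the young samples enclosed all 3 old ones. The log2 change was -0.35 ± 0.29 (SE), with a limma adjusted p of 0.480, and -0.10 without young 1. Per 1000 FPKM of the summed adult globins, Alas2 stood at 5.42, 4.84 and 4.67 FPKM in young 1, 2 and 3 and at 7.43, 5.16 and 4.06 FPKM in old 1, 2 and 3, a range of less than 2-fold. The table holds 2 Alas2 transcripts, both coding, with 11 exons. ENSMUST00000066337 was measured in every sample, at 5.63 to 15.9 FPKM. ENSMUST00000112715 was near 0 in young 1 and old 2 and was measured at 1.28 to 3.70 FPKM in the other 4 samples.

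Slc4a1 encodes band 3, the anion exchanger of the red cell membrane, and lies on the minus strand of chromosome 11 at 102348824 to 102366203. Its level was 4.40, 0.0847 and 0.564 FPKM in the young samples and 0.317, 0.0747 and 0.174 FPKM in the old samples. Young 1 was 7.80-fold above young 3, the next sample, and the age groups overlapped, with old 2 the lowest sample. The estimated fragments were 249, 5 and 30 in the young samples and 17, 5 and 10 in the old samples. The 95% Poisson interval was 3.87 to 4.98 FPKM in young 1 and 0.380 to 0.805 FPKM in young 3. These intervals cover counting error only.

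Klf1 is the erythroid transcription factor that binds CACCC motifs and activates the adult β-globin genes, and lies on the plus strand of chromosome 8 at 84901928 to 84905291. It was measured at 1.82, 0.291 and 0.129 FPKM in young 1, 2 and 3 and at 0.257, 0.459 and 0.418 FPKM in old 1, 2 and 3. Young 1 was the highest sample and young 3 the lowest, 14.1-fold apart, with 30 and 2 estimated fragments. The 95% Poisson interval of young 1 was 1.23 to 2.60 FPKM, and the upper bounds of the other 5 samples were at most 0.872 FPKM.

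Epb42 encodes protein 4.2, which ties band 3 to the membrane skeleton, and lies on the minus strand of chromosome 2 at 121017891 to 121037072. Its level was 0.903, 0.0565 and 0.209 FPKM in the young samples and 0.0830, 0.0830 and 0.0774 FPKM in the old samples. Young 1 was 4.32-fold above young 3, and the 3 old samples lay within the range of the young ones. The estimated fragments were 46, 3 and 10 in the young samples and 4, 5 and 4 in the old samples, so that outside young 1 the level of Epb42 rests on 10 fragments or fewer.

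Between young 1 and young 3, within 1 age group, the globins and Alas2 differed less than Slc4a1, Klf1 and Epb42. The summed adult globins in young 1 were 1.07-fold those in young 3, and Alas2 per 1000 FPKM of globins was 1.16-fold that in young 3. Slc4a1 per 1000 FPKM of globins was 1.50 FPKM in young 1 and 0.207 FPKM in young 3, a 7.26-fold difference. The same ratio differed 13.1-fold for Klf1 (0.621 and 0.0473 FPKM) and 4.02-fold for Epb42 (0.308 and 0.0766 FPKM). For Klf1, young 3 was the lowest sample, with 2 estimated fragments. Against the highest of the other 5 samples, young 1 was 6.43-fold for Slc4a1, 1.89-fold for Klf1 and 4.02-fold for Epb42. Across the 5 samples other than young 1, Slc4a1 was at 0.0533 to 0.233 FPKM, Klf1 at 0.0473 to 0.328 FPKM and Epb42 at 0.0345 to 0.0766 FPKM per 1000 FPKM of globins. Young 1 was thus above all other samples for these 3 genes and within their range for Alas2. These are descriptions of 6 samples and no test between samples was made.

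**Figure D2:**
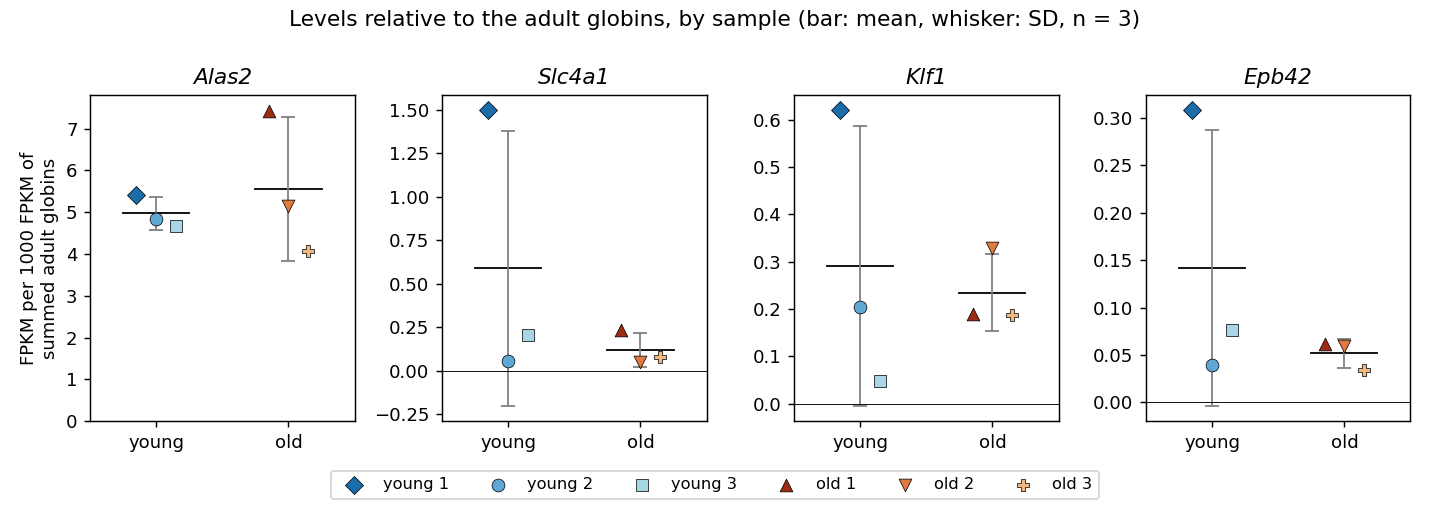
Level of Alas2, Slc4a1, Klf1 and Epb42 per 1000 FPKM of the summed adult globins, 1 point per sample, with the mean and SD of each age group (n = 3). Young 1 is at 1.50 for Slc4a1, 0.621 for Klf1 and 0.308 for Epb42, above all other samples, and at 5.42 for Alas2, below old 1.

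No member passed the test between the ages. At a limma adjusted p under 0.05 over all 19649 genes, 0 of 8 members were higher and 0 of 8 lower in old mice, against the 5.41% and 3.68% of all genes given above. At an unadjusted limma p under 0.05 the count was also 0 of 8, where 2843 of the 19649 genes were higher and 2560 lower. The age groups overlapped for all 8 members, whereas they did not overlap in 17.5% of all genes with old samples higher and in 16.0% with old samples lower. All 8 fitted changes were below 0, with a median of -0.59, against 0.0087 over all genes. The fitted change was -1.60 ± 1.08 (SE) for Slc4a1 (limma adjusted p = 0.385), -0.24 ± 0.77 for Klf1 (adjusted p = 0.866) and -1.01 ± 0.73 for Epb42 (adjusted p = 0.419).

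All 8 members had their highest value in young 1, as did 12.5% of the genes counted above, and the fitted changes moved with this sample. Without young 1 the median was -0.31, and 0 of 8 passed the test, where 540 of all genes were higher and 168 lower. Slc4a1 moved to -0.37 and Epb42 to -0.28, whereas Klf1 turned to 0.65, with an adjusted p of 0.473 by limma. The globins stayed below 0, at -0.17 for Hbb-bs to -0.81 for Hba-a2. What part the granulocyte genes and the other listed genes high in young 1 have in the fitted changes was not tested.

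**Figure D3:**
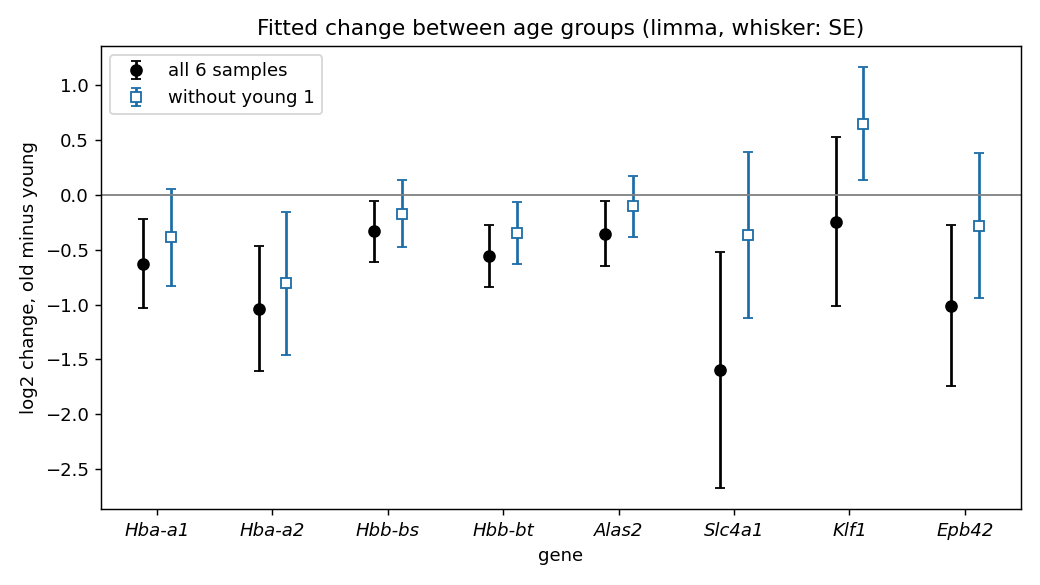
Fitted log2 change of each member (old minus young, limma on log2(FPKM + 0.1)) with its SE, for all 6 samples (filled circles) and without young 1 (open squares). All changes are below 0 with 6 samples, and without young 1 Slc4a1 and Epb42 move towards 0 and Klf1 turns to 0.65.

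Among other genes that erythroblasts use for the red cell membrane, some fell with age and some were high in young 1. Of 12 membrane genes tested, 0 rose and 3 fell in old mice, where 5.41% of all genes rose and 3.68% fell. Ank1, which encodes ankyrin and links band 3 to spectrin, fell from 15.6 ± 2.95 to 6.98 ± 0.650 FPKM (SD, n = 3). Add2, which encodes β-adducin, fell from 6.52 ± 0.240 to 2.74 ± 0.771 FPKM, and Dmtn, which encodes dematin, from 9.11 ± 0.746 to 6.62 ± 0.310 FPKM. The limma adjusted p-values were 0.0135, 0.0231 and 0.0480, and the age groups did not overlap for any of the 3 genes. All 3 are also known from neurons, and none had its highest value in young 1. With 1 sample left out at a time, the adjusted p of Ank1 was 0.0101 to 0.0561, passing in all cases but without old 2. Add2 (0.0373 to 0.0761) passed without young 3 or old 3 only, and Dmtn (0.0483 to 0.145) without young 3 only. Over 17 other settings of the analysis, Ank1 passed in 15, Add2 in 10 and Dmtn in 6.

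The most abundant membrane genes did not pass the test. Epb41, which encodes protein 4.1, was at 52.8 ± 4.50 FPKM in young and 56.3 ± 2.75 FPKM in old mice (SD, n = 3). Sptb, which encodes β-spectrin, was at 21.3 ± 0.562 and 22.3 ± 0.628 FPKM. Of the 10 genes that could be counted without young 1, 3 were more than 2-fold above the median of the other samples in young 1 (5.30% of all such genes). Ermap, in that count and named after its values were seen, was not highest there, at 1.45 FPKM in young 1 and 1.46 FPKM in young 3. A gene high in young 1 was Rhd, which encodes an Rh protein and was named after its values were seen. It passed the filter through young 1 alone and is not in that count. Rhd was at 2.27 FPKM in young 1 and at most 0.260 FPKM in the other samples (limma adjusted p between the ages 0.651). The median log2 change of the list was -0.55, and -0.18 over the 10 genes that passed the filter without young 1.

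Among the erythroid regulators, 3 of the 6 genes that could be counted without young 1 were more than 2-fold above the median of the other samples there. Between the ages 0 of 7 tested genes rose and 0 fell, with a median log2 change of -0.48, and -0.20 over 6 genes without young 1. Gata1, named like Tal1 after its values were seen, was at 0.746 FPKM in young 1 and at most 0.0393 FPKM in the other 5 samples, with 0 listed in 4 of them, so that it passed the filter through young 1 alone and is not in that count. Tal1, a partner of GATA1, was at 1.79 FPKM in young 1 and 0.384 to 0.732 FPKM in the others. The most abundant genes of the list, Zfpm1 (encoding FOG1, a cofactor of GATA1) and Lyl1, did not set young 1 apart. Zfpm1 was at 5.23 FPKM in young 1 and at 4.63 to 6.76 FPKM in the others, and Lyl1 at 1.94 and 1.00 to 2.48 FPKM.

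Of the late erythroid and reticulocyte genes, 15 were tested, 0 rose and 1 fell, a share near the 3.68% of all genes that fell. The median log2 change was -0.30, and -0.14 over 13 genes without young 1. The gene that fell was Mkrn1, which encodes a ubiquitin ligase made in many tissues, from 103 ± 8.92 to 79.7 ± 0.881 FPKM (SD, n = 3, limma adjusted p = 0.0315). With 1 sample left out it passed without young 3 only (0.0244 to 0.110), and it passed in 8 of 17 settings. Car2, which encodes carbonic anhydrase 2 and is also made by cells of the cochlea, was at 264 ± 20.9 FPKM in young and 346 ± 44.0 FPKM in old mice (adjusted p = 0.0643). Prdx2, an antioxidant enzyme abundant in red cells, was at 216 ± 8.72 and 210.4 ± 11.8 FPKM. In young 1, 2 of the 13 genes that could be counted were more than 2-fold above the median of the other samples. Trim10 was at 1.65 FPKM there, against at most 0.303 FPKM elsewhere, and Cldn13, which passed the filter through young 1 alone, at 1.07 FPKM, against at most 0.162 FPKM, both named after their values were seen. Ahsp, the α-globin chaperone, was on the list but was not found under that symbol, so it has no value here.

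Of the genes of haem synthesis and iron uptake, 0 of 14 were more than 2-fold above the median of the other samples in young 1. In this list 1 gene of 14 rose and 1 fell with age, near the 5.41% and 3.68% of all genes, with a median log2 change of 0.013, and -0.0032 without young 1. Alas1, the form of the first haem enzyme in tissues other than red cells, rose from 22.9 ± 1.79 to 30.3 ± 2.29 FPKM (SD, n = 3, limma adjusted p = 0.0403). With 1 sample left out it passed without young 3 only (0.0400 to 0.114), and it passed in 8 of 17 settings. The change of Alas1 was 0.40 on the log2 scale, against -0.35 for Alas2. Tfrc, the transferrin receptor that brings iron into erythroblasts and other cells, fell from 103 ± 13.3 to 55.6 ± 3.49 FPKM (adjusted p = 0.0116, and 0.0561 without old 2, the case of 6 in which it did not pass) and passed in 15 of 17 settings. Alad, the next enzyme of the pathway, was at 42.7 ± 4.24 and 55.1 ± 4.11 FPKM, with an adjusted p of 0.0529.

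Granulocyte precursor, cell division and B cell precursor genes were also highest in young 1, whereas 1 of 6 megakaryocyte and platelet genes was. S100a8 and S100a9, the most abundant of the granulocyte genes, were at 228 and 159 FPKM in young 1 and at most 36.4 and 27.4 FPKM in the other samples. Old 1 was the next sample for both. Elane, a defining gene of granulocyte precursors that was named after its values were seen, was at 2.39 FPKM in young 1 and 0.891 FPKM in old 1, and was listed at 0 in the other 4 samples. Cell division genes had their highest value in young 1 in 9 of 9 cases. Summed over all 10 listed genes, the level was 14.1 FPKM in young 1 and 3.09 to 4.51 FPKM in the other samples. Their most abundant members, Birc5 and Cdk1, were at 3.12 and 1.54 FPKM in young 1 and at most 0.865 and 1.23 FPKM elsewhere.

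B cell precursor genes had their highest value in young 1 in 4 of the 4 cases that could be counted without it. Summed over all 8 listed genes, the level was 6.56 FPKM in young 1 and 1.68 and 1.90 FPKM in the other young samples. In the old samples it was 0.881 to 1.14 FPKM. Vpreb3 was at 2.48 FPKM in young 1 and at most 0.721 FPKM elsewhere, Rag1 at 0.868 and at most 0.719 FPKM. Bone genes, made by osteoblasts and osteocytes, were highest in young 1 in 6 of 8 cases. Spp1 was at 5485 FPKM in young 1 and 4216 to 5550.4 FPKM in the others, and Bglap2 at 104 and 26.3 to 67.1 FPKM. In the age comparison 0 granulocyte, 0 cell division and 0 B cell precursor genes passed the test in either direction. Their median log2 changes were -0.26, -0.21 and -0.75, and 1.10, 0.27 and -0.33 without young 1. Of the 8 bone genes 0 rose and 2 fell (3.68% of all genes fell), Ibsp and Sp7, both named after their values were seen. Ibsp fell from 13.9 ± 8.37 to 1.92 ± 0.431 FPKM (SD, n = 3, limma adjusted p = 0.0207, and 0.0636, 0.0696 and 0.0575 without old 1, old 2 or old 3) and passed in 12 of 17 settings. Sp7 was at 1.13 ± 0.180 and 0.432 ± 0.0925 FPKM (adjusted p = 0.0490, and over 0.05 with any 1 sample left out) and passed in 6 of 16 settings. The part of these other cell types in the levels of Slc4a1, Klf1 and Epb42 in young 1 was not tested.

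**Figure D4:**
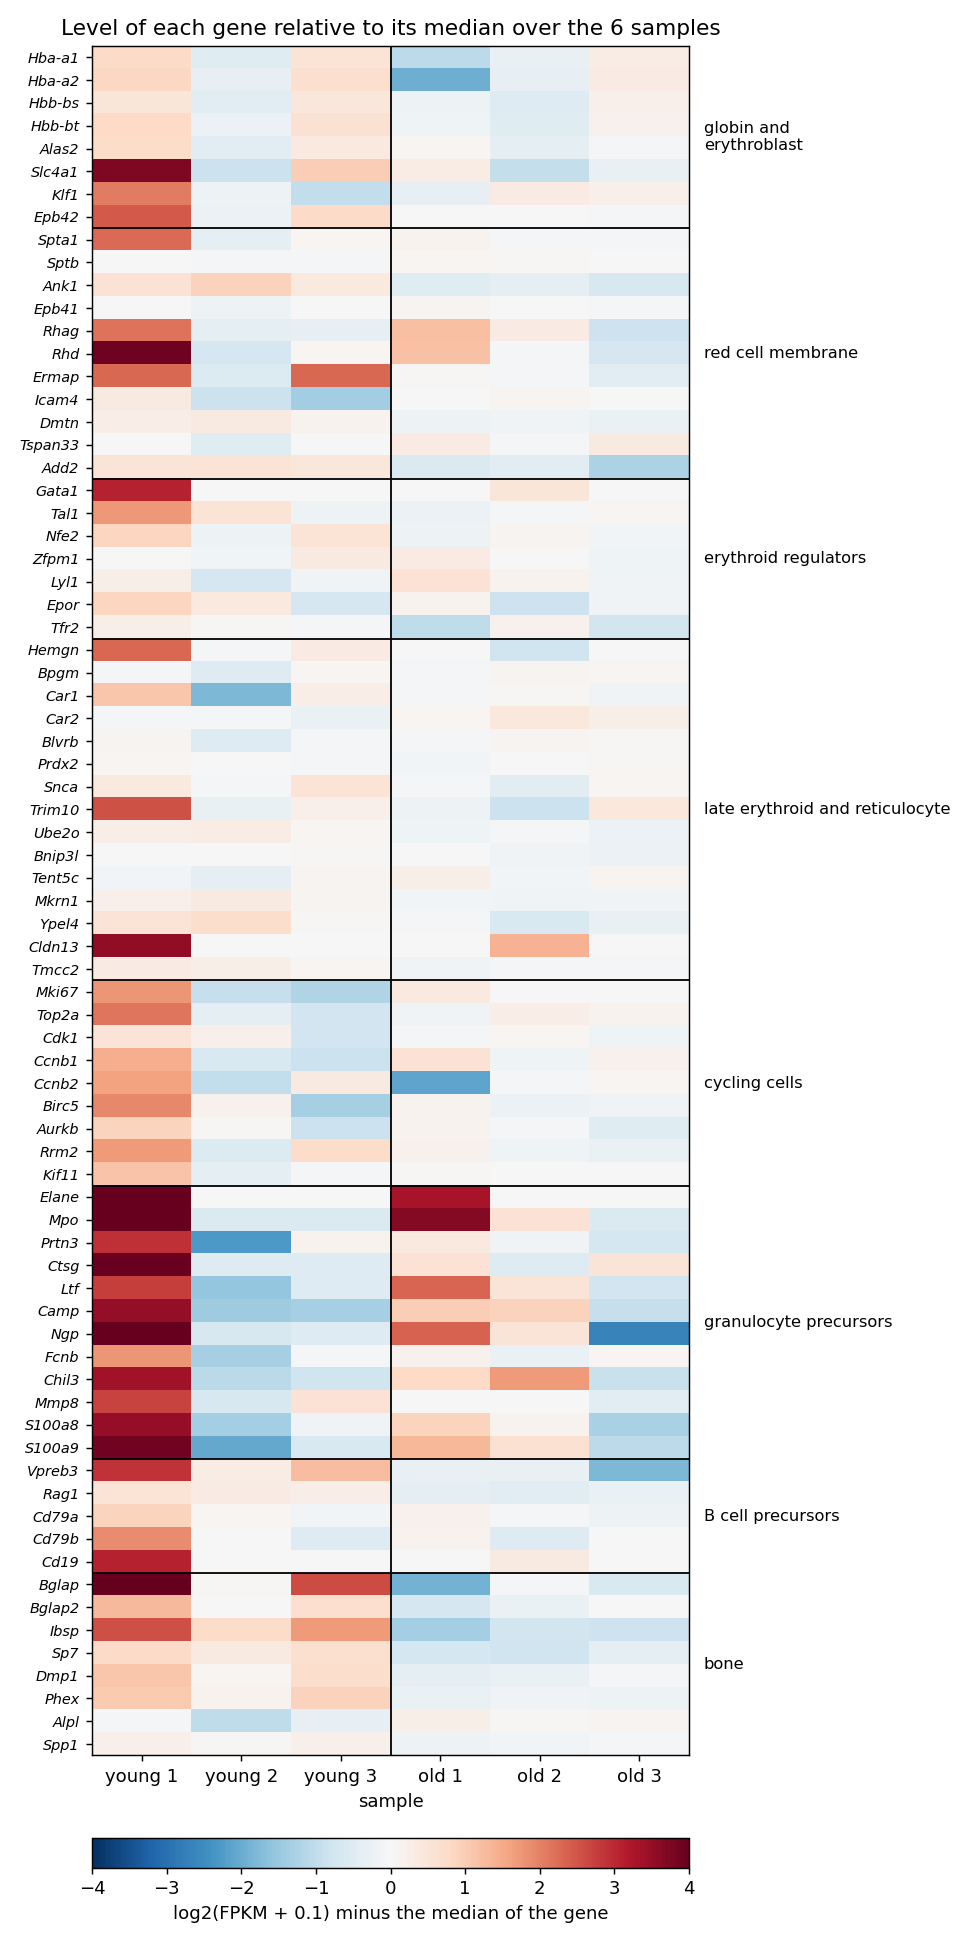
Level of the tested genes in each sample as log2(FPKM + 0.1) minus its median over the 6 samples (red above, blue below, colours end at 4 units either side of 0), for the 8 members and 7 other lists. Young 1 is red in Slc4a1, Klf1, Epb42, Trim10 and the 9 granulocyte genes that could be counted without it. In the globin rows it is only pale, and young 3 has a like colour. Rhd and Gata1, which passed the filter through young 1 alone, and the granulocyte genes that could not be counted are also red there.

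None of the 10 genes whose pattern over the 6 samples was most like that of the globins belonged to the erythroid lists. Among 15070 genes with a mean of at least 1 FPKM, Pearson's r with the summed adult globins on the log2 scale was highest for Bhmt2 (r = 0.989), Washc3, Zscan22, Chst1, Cabp2, Rab38, Tctn3, Fibin, Fpgt and Tmsb15b1 (r = 0.964). Spearman's rho was 0.714 to 1.00 for these genes. Over the 4 samples left without young 1 and young 3, the samples farthest from the median of the globins, r was 0.917 to 0.990, which is no independent value since the genes were selected on all 6 samples. All points share the same 6 libraries. Cabp2 encodes a calcium-binding protein of hair cells, Rab38 a GTPase of melanosomes and Washc3 a subunit of the WASH complex on endosomes. The spread of these genes was smaller than that of the globins, with an SD over samples of 0.0837 (Washc3) to 0.438 (Tmsb15b1) on the log2 scale, against 0.514 for the globins. Alas2 ranked 179, with r = 0.825 and rho = 0.600, and r = 0.296 over the 4 samples. Over 6 and over 4 samples, r was 0.750 and 0.0988 for Slc4a1, 0.354 and 0.466 for Klf1, and 0.758 and 0.0721 for Epb42. For Alas2, Slc4a1 and Epb42 r was thus lower without young 1 and young 3. Leaving out the samples farthest from the median of the globins narrows their range, and 4 points cannot tell what the relation rested on.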

How the data were processed

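Cochlear RNA of 3 young and 3 old samples was sequenced as paired-end reads of 150 nt from directional libraries. The authors aligned the reads to GRCm38, assembled transcripts and deposited FPKM per transcript and sample, and the submitters' processing notes name CASAVA 1.8, TopHat2 2.0.9, Cufflinks 2.1.1 and Cuffdiff 2.1.1. The annotation release and the scaling between libraries are not given in the sources used here. The table lists 56671 transcripts, of which 55275 of 55679 Ensembl transcripts were matched to GENCODE M21 and summed per gene.

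Log2(FPKM + 0.1) of the genes with a mean of at least 0.1 FPKM was compared between the ages by limma (version 3.58.1, R 4.3.3), using lmFit and then eBayes with a variance trend, with Benjamini-Hochberg adjustment over all 19649 genes and a threshold of 0.05. Cuffdiff, the test of the study, works on reads and was not run. The code was tested on simulated data. Depth was estimated from the steps of low FPKM values, of which 92.8% to 94.6% lay within 0.1 of a whole step, against 20% by chance. Intervals are exact Poisson intervals for the fragments.

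Members and gene lists were chosen with earlier results of these data known. The named genes are the members, the genes past the threshold and the 2 most abundant genes of each erythroid list, the 2 most abundant genes of other lists and the 10 genes most correlated with the globins. Other names are said to be chosen later, and 1 listed gene is counted in its list but not reported here. The replicate numbers did not pair the samples (correlations of deviations 0.022, -0.042 and 0.0100). Python 3.11.15, pandas 2.3.3, scipy 1.17.1 and matplotlib 3.10.9 were also used.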

Additional observations from a re-analysis of the deposited data

How the results depend on the processing

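Under 17 alternative settings 0 of the 8 members passed the threshold, and the lowest adjusted p was 0.0771, for Hbb-bt without young 2. The settings were pseudocounts of 0.01 and 1, no filter, a mean of at least 1 FPKM, median of ratios and quantile scaling, no variance trend, sample weights, a replicate block, the most abundant transcript, an unadjusted p and each sample left out. Of 133 recomputed member changes 132 kept their direction, and Klf1 turned to 0.65 without young 1, against -0.88 without young 3. Many of these could not turn. The 2 filter settings, no variance trend, the unadjusted p and the replicate block leave the fitted change of a gene as it was. The median change of the members ranged from -0.94 (without young 2) to -0.31 (without young 1) and was -0.69 with quantile scaling. With the replicate block it was -0.59 and 0 members passed, while 410 genes were higher and 265 lower, against 1063 and 724.

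Over all genes, no filter gave 206 higher and 101 lower, no trend 271 and 121, and an unadjusted p 2843 and 2560. Leaving out 1 sample gave 44 to 540 higher and 15 to 168 lower for young 1, young 2 and the old samples, and 935 and 821 without young 3. Relative to the summed globins, the log2 difference between the ages was 0.12 for Alas2 (-0.12 without old 1 to 0.32 without old 3) and 0.32 for Klf1 (-0.65 without young 3 to 1.20 without young 1). It was -1.42 for Slc4a1 (-2.49 without young 2 to -0.16 without young 1) and -0.97 for Epb42 (-1.62 without young 2 to -0.14 without young 1). The replicate block also took Alas1 (0.0596), Dmtn (0.0852), Mkrn1 (0.0639) and Sp7 (0.0953) past 0.05. The cause was not tested. Klf1, Slc4a1 and Epb42 rest on 2 to 30 fragments outside young 1.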

Other observations

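Of 11 listed genes for the breakdown of red cells by macrophages and the recycling of their iron, 10 passed the filter, and Spic did not. Cd163 was at 0.789 ± 0.183 FPKM in young and 0.873 ± 0.0738 FPKM in old mice (SD, n = 3). Slc40a1 was at 2.80 ± 0.571 and 1.75 ± 0.453 FPKM, with the old samples all below the young ones (limma adjusted p = 0.136). Spic, Cd163 and Slc40a1 were named after their values were seen. Of 10 tested, 1 rose (5.41% of all genes did) and 0 fell with age. The log2 change was above 0 in 8 and below 0 in 2, with a median of 0.13. Slc11a1, which encodes the phagosomal metal transporter of macrophages, rose from 1.72 ± 0.311 to 5.0 ± 0.597 FPKM (SD, n = 3, limma adjusted p = 0.0127, and 0.0198 without young 1 and 0.0613 without old 2, the 1 of 17 settings in which it did not pass). The ferritin genes Ftl1 and Fth1 store iron in most cells. Ftl1 was at 841 ± 89.1 FPKM in young and 997 ± 39.6 FPKM in old mice (adjusted p = 0.120), and Fth1 at 811 ± 20.1 and 815 ± 37.3 FPKM (adjusted p = 0.956). Hp, which encodes haptoglobin, the plasma protein that binds free hemoglobin, was named after its values were seen, at 4.49 FPKM in young 1 and at most 0.912 FPKM in the other samples.

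Platelet and megakaryocyte genes were not ordered like the globins. Pf4, a chemokine of platelet granules, was at 11.1, 2.42 and 1.62 FPKM in young 1, 2 and 3 and at 11.7, 10.9 and 6.98 FPKM in old 1, 2 and 3. Its log2 change was 1.41 ± 0.64 (SE, limma adjusted p = 0.204), and 2.22 without young 1 (adjusted p = 0.0223). Itga2b, the platelet integrin, was at 2.55 ± 0.561 and 3.12 ± 0.471 FPKM (adjusted p = 0.429). Of 6 tested genes 0 passed with all samples, where 5.41% of all genes rose and 3.68% fell. Without young 1, 1 of 6 passed, Pf4, where 540 of all genes were higher and 168 lower.

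Endothelial genes had their highest value in young 1 in 1 of 6 cases, and 0 of 6 were 2-fold above the other samples there. Between the ages 0 of 6 passed the test, with changes below 0 in 5 of 6 and a median log2 change of -0.50 (-0.48 without young 1), beside -0.59 for the members. In 3 of 6 all old samples were below all young ones, as in 16.0% of all genes. The log2 change was -0.74 for Kdr, -0.57 for Tek, -0.43 for Pecam1 and -0.20 for Cdh5, named after their values were seen. The part of the endothelium in the levels of the members was not tested. Emcn, an endothelial sialomucin, was at 68.3 ± 6.94 and 76.0 ± 4.30 FPKM (adjusted p = 0.305), and Cldn5, a tight junction gene, at 45.4 ± 14.1 and 22.5 ± 6.94 FPKM (adjusted p = 0.0645). Of the globins of other cells, Cygb, which encodes cytoglobin, was at 11.3, 14.0 and 8.67 FPKM in young 1, 2 and 3 and at 6.23, 6.99 and 7.25 FPKM in old 1, 2 and 3. The old samples were all below the young ones, with a log2 change of -0.70 ± 0.18 (SE) and an adjusted p of 0.0530, short of the threshold. Mb was at 0.785 ± 0.128 and 1.36 ± 0.790 FPKM (adjusted p = 0.370).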
